A study of Mus musculus with 6 samples.

Results

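The 10 genes examined here mark the epithelium of the alveolus and were measured in 2D-MAOs, mouse airway epithelial organoids plated as a flat culture, with and without TGF-β1. The 6 markers of type 2 alveolar cells were Sftpa1, Sftpb, Sftpc, Sftpd, Lamp3 and Napsa, and the 4 markers of type 1 cells were Ager, Hopx, Aqp5 and Cav1. A gene was taken from the array through every probe that was not a control spot and whose RefSeq accession belongs to it. By this rule all 10 markers were found, with 18 probes, among 22910 genes with a matched probe.

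The cells came from lung airway epithelium of C57BL/6 mice. The 3 control cultures received no TGF-β1, and 3 further cultures received TGF-β1, a secreted growth factor, from day 3. The medium for the treatment lacked noggin, an inhibitor of BMP ligands, and A83-01, an inhibitor of TGF-β receptors, and both groups were collected on day 7. The wording was read as giving both groups this medium but does not settle it, and were the controls kept with these factors, the differences below would include their removal. The description names no concentration of TGF-β1 for the arrays and no age or number of mice, and it calls the cultures biological replicates. RNA of each culture was hybridised to 1 array with a single dye, and a brighter spot stands for more RNA bound to the probe printed there.

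The alveolar surface is lined by type 2 cells, which store surfactant in lamellar bodies and secrete it, and by thin type 1 cells, across which gas is exchanged. Surfactant proteins B and C are small hydrophobic proteins that spread the lipid film, whereas surfactant proteins A and D are soluble lectins of innate defence. Type 2 cells can turn into type 1 cells through a transitional state, and several genes used as alveolar markers, Sftpd, Aqp5, Hopx and Cav1 among them, are also expressed by cells of the airways or by other cell types.

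The markers divided by detection before any comparison of the groups. Of the 10, 6 were well above background on all 6 arrays (Sftpd, Lamp3, Ager, Hopx, Aqp5 and Cav1), and 4 were not above background on any array (Sftpa1, Sftpb, Sftpc and Napsa). This undetected share of 40% stood beside 33.6% over all genes on the array. All 4 type 1 markers were detected, but only 2 of 6 type 2 markers. The type 2 label was therefore not borne out by the markers most restricted to that cell, Sftpc among them, and Sftpd and Lamp3 are described below as detected genes and not as evidence of type 2 cells.

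The promoters of Sftpa1 and Sftpb, which were undetected, and of Lamp3, Hopx and Aqp5, which were detected, are shown because these genes stand on both sides of this division. Each is the 250 bases before the transcription start site in RefSeq, assembly GRCm38.p6, read 5′ to 3′ on the gene's strand. Capitals mark matches, on either strand, to the core of NKX2-1 sites (CTCAAG), of FOXA sites (TGTTTAC or TGTTTGC), of TEAD sites (GGAATG), to the SMAD letters CAGACA, or to the TATA box letters TATAAA.
Sftpa1, chr14:41131538-41131787, plus strand: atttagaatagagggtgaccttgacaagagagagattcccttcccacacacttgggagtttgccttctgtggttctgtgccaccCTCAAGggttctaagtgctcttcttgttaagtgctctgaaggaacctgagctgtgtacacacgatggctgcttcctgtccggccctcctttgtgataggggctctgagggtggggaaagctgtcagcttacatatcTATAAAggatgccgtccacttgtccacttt
Sftpb, chr6:72304360-72304609, plus strand: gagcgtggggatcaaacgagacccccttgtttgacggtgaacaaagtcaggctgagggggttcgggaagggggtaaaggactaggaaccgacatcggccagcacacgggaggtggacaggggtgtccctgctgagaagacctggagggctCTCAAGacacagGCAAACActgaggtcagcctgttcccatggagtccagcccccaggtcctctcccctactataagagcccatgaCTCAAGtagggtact
Lamp3, chr16:19706366-19706615, minus strand: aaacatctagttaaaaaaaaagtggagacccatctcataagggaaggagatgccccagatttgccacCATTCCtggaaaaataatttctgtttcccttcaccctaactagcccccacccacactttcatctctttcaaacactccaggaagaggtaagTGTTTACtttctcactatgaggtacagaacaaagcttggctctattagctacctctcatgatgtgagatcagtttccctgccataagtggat
Hopx, chr5:77115124-77115373, minus strand: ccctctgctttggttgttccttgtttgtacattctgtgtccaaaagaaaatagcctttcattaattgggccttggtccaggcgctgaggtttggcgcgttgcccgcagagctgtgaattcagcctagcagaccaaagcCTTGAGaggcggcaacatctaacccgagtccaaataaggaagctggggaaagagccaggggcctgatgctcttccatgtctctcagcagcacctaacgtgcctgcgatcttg
Aqp5, chr15:99590778-99591027, plus strand: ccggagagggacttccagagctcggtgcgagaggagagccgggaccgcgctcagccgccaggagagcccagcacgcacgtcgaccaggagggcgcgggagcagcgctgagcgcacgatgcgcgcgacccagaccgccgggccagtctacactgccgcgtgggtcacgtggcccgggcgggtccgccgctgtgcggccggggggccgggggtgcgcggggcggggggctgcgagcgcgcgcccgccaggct

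NKX2-1 is the transcription factor that directs lung epithelial and surfactant gene expression. Its core letters stood once in the Sftpa1 window, at 166 to 161 bases before the start, and at both 100 to 95 and 15 to 10 bases before the start of Sftpb, where a FOXA match lay between them at 88 to 82 bases. The Lamp3 window held a FOXA match at 92 to 86 bases and a TEAD match at 183 to 178 bases. The NKX2-1 letters also stood in the shown window of the detected Hopx, at 112 to 107 bases on the opposite strand. They were absent from the windows of Lamp3 and Aqp5, and from those of Ager and Cav1, which are not shown. Whether the letters go with detection was not tested. Hopx has a second start site, whose window held none of the letters. The Aqp5 window, 78.4% G and C, held none of these letters. Over all 32851 promoters of the same length, 13.3% held the NKX2-1 letters, 7.29% a FOXA match, 12.6% the TEAD letters, 17.1% the SMAD letters and 12.4% the TATA letters. Such a match describes the letters and is not a binding site, and none of the 7 markers with an entry held the SMAD letters.

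Surfactant protein genes were read first. Sftpc, the gene of surfactant protein C and the marker most particular to type 2 cells, gave normalised log2 signals of 2.06, 2.76 and 2.80 on the control arrays and 3.06, 3.20 and 2.70 on the TGF-β1 arrays. All of these lay below the dimmest probe that was well above background on the same array, which ranged from 3.47 to 4.19 over the arrays. The Sftpc spot was 1.47 to 1.75 times as bright as its local surroundings, whereas the middle 95% of probes undetected on every array lay between 0.972 and 1.66 times. Values at this level have no order, and no change was computed.

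Sftpa1, the gene of surfactant protein A, stood at log2 signals of 1.60 to 1.65 and a brightness of 1.08 to 1.28 times its surroundings. Sftpb, the gene of surfactant protein B, had a pair of probes, one between 1.62 and 3.42 and the other between 1.59 and 1.61 on the log2 scale. Both Sftpb probes were at most 1.49 times as bright as their surroundings. Napsa encodes napsin A, an aspartic protease that processes the precursor of surfactant protein B. Its probes ranged from 1.66 to 2.80 and from 1.71 to 3.03, and no spot of it exceeded 1.70 times its surroundings. Thus none of these 4 markers rose above background in either group.

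Sftpd, the gene of surfactant protein D, was in contrast 4136 to 4989 times as bright as its surroundings. Its normalised log2 signals were 17.11, 17.13 and 17.06 in the controls and 17.01, 17.08 and 17.11 with TGF-β1. The groups overlapped, and all 6 arrays lay within a narrow band. The difference, TGF-β1 minus control, was -0.03 on the log2 scale (SE 0.096, 95% interval -0.26 to 0.20, limma adjusted p = 0.861). This interval runs from 0.835-fold to 1.15-fold.

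**Figure D1:**
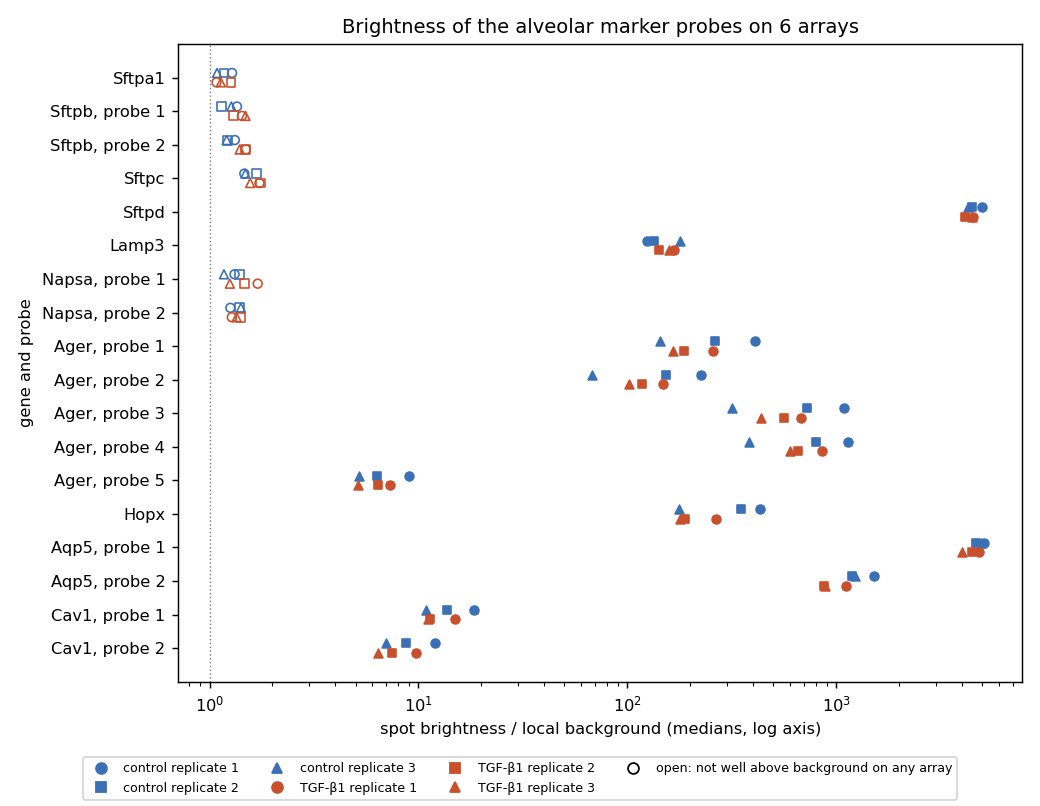
Brightness of each of the 18 marker probes relative to its local surroundings on a log10 axis, with 1 symbol per array, colours for the groups, shapes for the replicates and open symbols for probes not above background on any array. Sftpd and the first Aqp5 probe lie at 4024 or more, whereas all probes of Sftpa1, Sftpb, Sftpc and Napsa lie at 1.75 or less.

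Lamp3 encodes a membrane glycoprotein of lamellar bodies, which maturing dendritic cells also make. Its log2 signals were 12.18, 12.30 and 12.65 in the controls and 12.55, 12.53 and 12.52 with TGF-β1. Control replicate 3 was the highest of all 6 arrays and the other controls were the lowest, so that the groups overlapped. The difference was 0.16 (SE 0.142, 95% interval -0.18 to 0.50, limma adjusted p = 0.524). The TGF-β1 arrays differed by 0.03 at most, against 0.47 among the controls.

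Among type 1 markers, Ager encodes the receptor for advanced glycation end products, carried at high density on the basal surface of type 1 cells. Its brightest probe gave log2 signals of 15.09, 14.58 and 13.73 in the controls and 14.72, 14.58 and 14.18 with TGF-β1. The control arrays held both the highest and the lowest value and spanned 1.36 on the log2 scale, so that the 3 TGF-β1 arrays lay inside their range. The mean difference was 0.03 (SE 0.341, 95% interval -0.78 to 0.84, limma adjusted p = 0.964).

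The sign of the Ager difference was not settled. It was negative in 7 of 19 alternative settings, among them -0.22 with scaling to the 75th percentile, -0.34 when control replicate 3 was left out and -0.08 when TGF-β1 replicate 1 was. The other 4 Ager probes gave differences of -0.17, -0.10, 0.04 and -0.36, none of which passed the test when each probe was tested on its own, and the last of these reads a noncoding transcript variant at only 5.15 to 8.98 times its surroundings. Control replicate 3 was the lowest control on all 5 probes, and TGF-β1 replicate 3 was the lowest TGF-β1 array on all 5.

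Hopx encodes a small homeodomain protein that does not bind DNA and marks type 1 cells and some of their progenitors. Its log2 signals were 13.74, 13.46 and 12.61 in the controls and 13.08, 12.73 and 12.57 with TGF-β1. Control replicates 1 and 2 were the highest arrays, but control replicate 3 lay below 2 of the TGF-β1 arrays. The difference was -0.48 (SE 0.300, 95% interval -1.19 to 0.24, limma adjusted p = 0.368), and -0.81 to -0.24 with single arrays left out. Hopx was the only tested marker whose limma interval still held a 2-fold change, in the downward direction.

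Cav1 encodes caveolin-1, the main coat protein of caveolae, which is abundant in type 1 cells and also in endothelium, fibroblasts and basal cells. The study stained 2D-MAOs for caveolin as a marker of type 1 cells. The log2 signals of its brighter probe were 9.16, 8.92 and 8.34 in the controls and 8.58, 8.39 and 8.44 with TGF-β1. As for Hopx, control replicates 1 and 2 were highest and control replicate 3 was low, here the lowest array of all. The difference was -0.33 (SE 0.212, 95% interval -0.84 to 0.17, limma adjusted p = 0.377), and -0.56 to -0.155 with single arrays left out. The second Cav1 probe differed by -0.49 (adjusted p = 0.200 in limma with each probe as a unit). The probes were 10.8 to 18.4 and 6.44 to 12.0 times as bright as their surroundings.

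Aqp5 encodes a water channel of the apical membrane in type 1 cells and in several glands. Its brighter probe gave log2 signals of 17.12, 17.10 and 17.19 in the controls and 17.06, 17.10 and 16.98 with TGF-β1. The arrays were close together and the groups overlapped. The difference was -0.09 (SE 0.098, 95% interval -0.32 to 0.14, limma adjusted p = 0.600), and the second probe, at 875 to 1518 times its surroundings, differed by -0.25 (adjusted p = 0.340 with each probe as a unit).

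**Figure D2:**
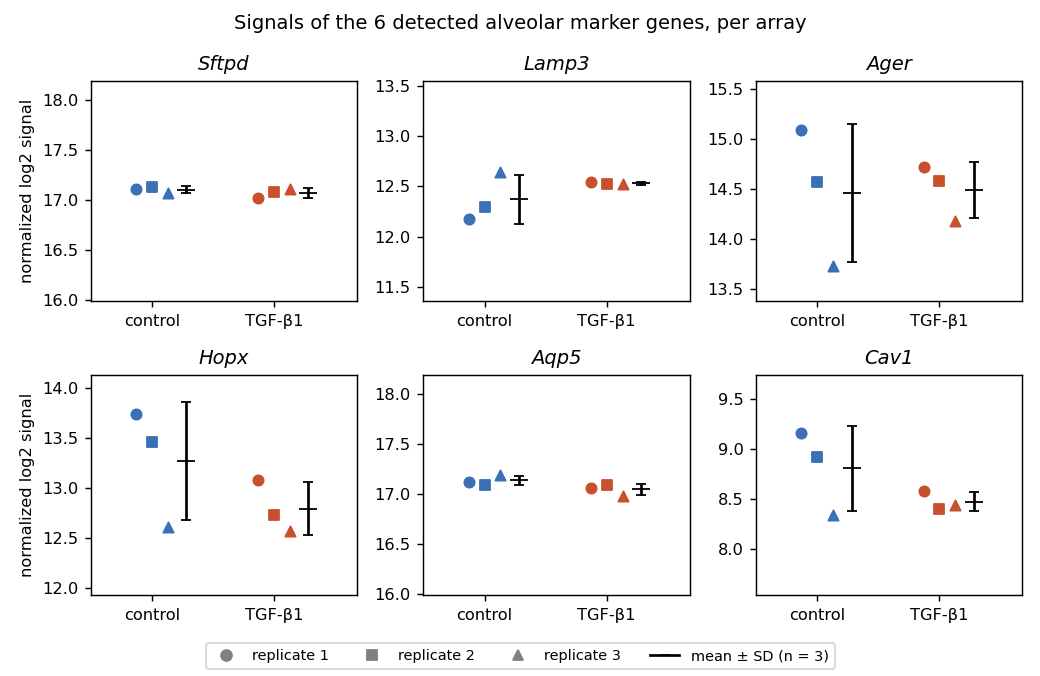
Normalised log2 signal of the 6 detected markers on each array, with a symbol shape for each replicate and the mean ± SD (n = 3) beside each group. Ager, Hopx and Cav1 spread over 0.82 to 1.36 among the controls, with control replicate 3 low, while the arrays of a group spanned at most 0.12 for Sftpd and Aqp5.

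Across the 6 tested markers, none reached an adjusted p under 0.05, against 2.04% of the 14345 genes tested. None passed the 2-fold change together with the adjusted p, as 1.38% of all genes did. None had an unadjusted p under 0.05 in limma either, against 22.2% of all genes, and in none were the groups free of overlap, against 26.4% of all genes. Of these markers 2 were higher and 4 lower with TGF-β1, with a median difference of -0.06, where the median over all genes tested was -0.03. The intervals of 5 of the 6 excluded a 2-fold change in either direction, and that of Hopx did not. In a two-sided exact permutation test of each marker, in which 3 arrays against 3 cannot give less than 0.1, p ranged from 0.2 for Aqp5 to 0.9 for Ager. Fewer cells of a type and less RNA per cell cannot be told apart in these bulk cultures.

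The spread among controls differed between the markers. The SD of the control arrays was 0.69 for Ager, 0.59 for Hopx and 0.42 for Cav1, larger than in 97.8%, 96.5% and 91.2% of all tested genes. It was 0.03 for Sftpd and 0.05 for Aqp5, larger than in only 3.85% and 7.36% of genes. In the TGF-β1 group the SD was 0.28 for Ager, 0.26 for Hopx and 0.10 for Cav1.

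The arrays lay in both rows of 1 slide, replicate 3 of each group in row 2 and the other 4 arrays in row 1. With the row as a term, none of the 6 markers passed the test, and the adjusted p was 0.201 for Hopx and 0.284 for Cav1. Within row 1, with 2 arrays per group, Hopx was lower by -0.69 (limma adjusted p = 0.0474) and Cav1 by -0.55 (limma adjusted p = 0.0453), which passed the test. In that fit 13% of all genes were called lower and 26.8% were called in either direction, beside 2 of 6 markers, both lower. With 6 markers these shares were not compared by a test. Within row 1 the differences of the other markers were 0.30 for Lamp3, -0.18 for Ager, -0.07 for Sftpd and -0.03 for Aqp5, and none passed.

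Row 2 held 1 array per group and allows no test. There TGF-β1 replicate 3 differed from control replicate 3 by 0.46 for Ager, 0.10 for Cav1, 0.05 for Sftpd, -0.04 for Hopx, -0.13 for Lamp3 and -0.21 for Aqp5. Ager, Cav1, Sftpd and Lamp3 thus had opposite signs in the rows. Replicate 3 and row 2 are the same arrays and cannot be told apart. TGF-β1 replicate 3 also stood apart from the other TGF-β1 arrays over all genes, and leaving it out gave no call among the markers.

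**Figure D3:**
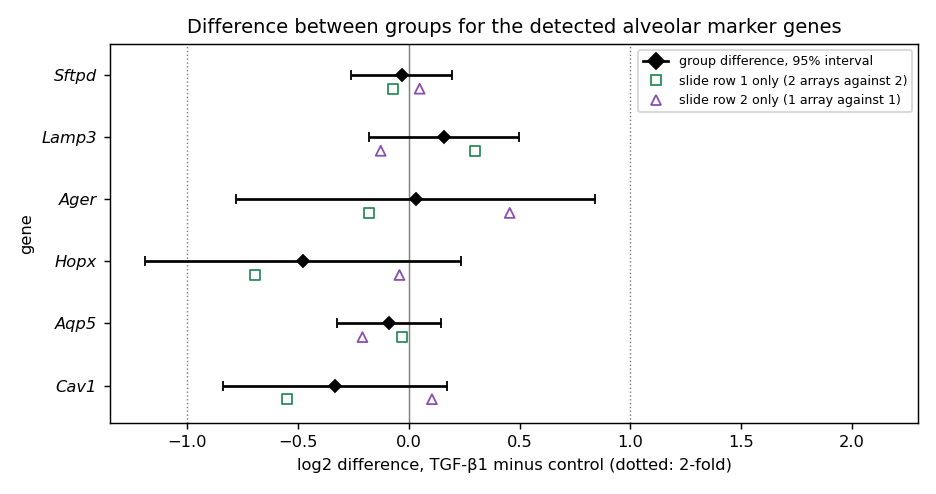
Difference in normalised log2 signal, TGF-β1 minus control, for the 6 tested markers, with the 95% interval from limma over all 6 arrays and the values within slide row 1 and slide row 2. The interval of each marker includes 0, and Hopx and Cav1 lie lower in row 1 than in row 2.

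Further genes of alveolar cells were read from lists written from general knowledge. Of 20 further type 2 genes, 13 were tested, none rose and 2 fell, where 0.404% of all genes were called lower. Sfta2, which encodes a small secreted protein related to surfactant, gave log2 signals of 10.52, 10.45 and 9.93 in the controls and 8.61, 8.95 and 8.85 with TGF-β1. All TGF-β1 arrays were below all controls, and Sfta2 fell by 1.50 on the log2 scale (SE 0.184, limma adjusted p = 0.0150). Without control replicate 1 or 2, or TGF-β1 replicate 1 or 2, its adjusted p lay between 0.0611 and 0.0746, and its difference over all single arrays left out was -1.68 to -1.39.

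Fabp5, a fatty acid-binding protein that many epithelia make, fell by 0.69 (SE 0.125, limma adjusted p = 0.0484). That call was lost when any of 5 single arrays was left out (adjusted p 0.0289 to 0.187 over the 6 omissions). Other settings also lost it, among them the slide row as a term (0.0582) and the replicate block (0.0799). The tested genes of the list that did not pass included Etv5, a transcription factor downstream of FGF, with 0.95 (adjusted p = 0.0544), the lipid transporter Mfsd2a with 0.52, and Lyz1, a lysozyme, with -1.36. The median of the list was -0.21, whereas its summed signal was 105600 to 117400 in the controls and 129800 to 141300 with TGF-β1. Ctsh, a bright gene of the list chosen after its values were seen, had 0.46 (limma adjusted p = 0.0873). The remaining 7, Slc34a2, Lyz2, Chil1, Hc, Lgi3, Egfl6 and Acoxl, were not above background on any array. Abca3, the lipid transporter of lamellar bodies, was detected and stood at 13.99 ± 0.16 in the controls and 14.09 ± 0.14 with TGF-β1 (SD, n = 3 each), and was chosen for mention after its values were seen.

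Surfactant lipid synthesis and protein processing, a list that shares several genes with the one above, had 13 of 16 genes tested and none that passed. Its median was -0.01, and its extremes were Scap, the escort of sterol regulatory proteins, with 0.54, Mfsd2a with 0.52, Gde1 with -0.41 and Chka, a choline kinase, with -0.74 (limma adjusted p = 0.0532).

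Of the further type 1 genes, 18 were on the array and 17 were tested, Spock2 being undetected, and none passed in either direction. The median was 0.07. Igfbp2, a secreted binding protein of insulin-like growth factors, had the highest difference at 2.37 (limma adjusted p = 0.110), followed by the laminin chain gene Lama3 with 1.15, while Cryab had -0.60 and Clic5 -0.75. Pdpn, the gene of podoplanin, was chosen after its values were seen and differed by 0.09 with a 95% interval of -0.17 to 0.36. Many genes of this list also serve other epithelia.

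The transitional state between type 2 and type 1 cells was read from 18 genes, all of them tested. A single gene rose and none fell, where 1.63% of all genes were called higher. This was Sfn, which encodes the cell cycle regulator stratifin and is also expressed in stratified epithelium, with log2 signals of 15.62, 15.88 and 15.59 in the controls and 16.89, 16.98 and 16.91 with TGF-β1. The groups were far apart, and Sfn rose by 1.23 (SE 0.117, limma adjusted p = 0.00741), by 1.17 to 1.32 when single arrays were left out. Areg, a ligand of the EGF receptor, had 1.26 and Itgb6, an integrin chain that activates latent TGF-β, had 1.23, but neither passed (adjusted p = 0.127 and 0.136), and Fosl1 had -0.54 and Sprr1a -0.82. The median of the list was 0.08.

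Regulators of alveolar identity comprised 17 genes, of which 16 were tested, Elf5 being undetected. Nkx2-1, chosen after its values were seen because of the promoter letters above, gave 13.63, 13.38 and 13.33 in the controls and 13.60, 13.44 and 13.27 with TGF-β1. These values interleaved, and the difference was -0.01 with a 95% interval of -0.34 to 0.32. Sox9, a transcription factor of the distal lung bud and of airway progenitors, was the only regulator that passed, with 7.10, 7.75 and 7.77 in the controls and 8.75, 8.94 and 8.52 with TGF-β1. It rose by 1.20 (SE 0.213, limma adjusted p = 0.0468), but the call was lost when any array other than TGF-β1 replicate 3 was left out (adjusted p 0.0220 to 0.178 over the 6 omissions) and when the slide row was a term (0.0587). Cebpa with -0.43 and Id2 with -0.73 were the lowest and did not pass, and the median of the list was -0.02.

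The families of Cav1 and Aqp5 were read in the same way. Of 10 caveola genes, 9 were tested and none passed, Cav3, the caveolin of muscle, being undetected. They ranged from 0.50 for Ror1 and 0.19 for Pacsin3 to -0.45 for Cavin4 and -0.84 for Cavin2 (limma adjusted p = 0.0786), with a median of -0.04. Of 11 aquaporin genes, 8 were tested and none passed, with a median of -0.14. Aqp4 at 0.37 was the only positive value, Aqp7 was at -0.00, and Aqp2 at -0.40 and Aqp9 at -0.56 were the lowest.

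**Figure D4:**
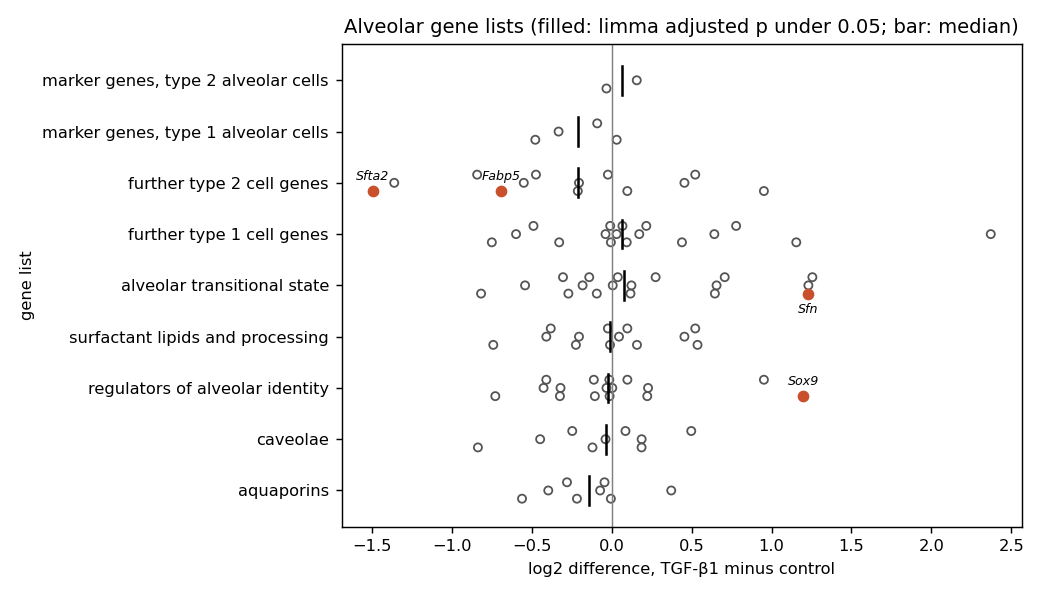
Difference in normalised log2 signal, TGF-β1 minus control, of every tested gene in the marker groups and the alveolar lists, with 1 point per gene, each list's median as a bar and filled, named points for genes with an adjusted p under 0.05. The 6 tested markers lie between -0.48 and 0.16, and Sfn, Sox9, Sfta2 and Fabp5 are the genes that passed.

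Markers of other cell types that could contribute to these signals were read alongside. Of 10 basal cell genes, all were tested, 8 were positive and 1 passed, the keratin gene Krt17 with 1.06 (limma adjusted p = 0.0472). That call was lost when any array other than TGF-β1 replicate 3 was left out (adjusted p 0.00912 to 0.193 over the 6 omissions) and with scaling to the 75th percentile (0.0882). The median of the list was 1.17. The summed signal of its genes was 115000 to 143900 in the controls and 174200 to 305800 with TGF-β1, without overlap. Sums of several other lists did not overlap either. For the leukocyte genes they were higher with TGF-β1 (10570 to 12280 in the controls, 13570 to 14750 with TGF-β1). For the caveola genes they were lower (122700 to 134100 in the controls, 110700 to 116900 with TGF-β1). Among the basal cell genes, Col17a1 with 2.13 and Krt14 with 1.55 were the highest, and Aqp3 with -0.07 and Krt15 with -1.06 the lowest. Of 9 ciliated cell genes, 1 rose, Foxj1, the regulator of motile cilia, with 1.47 (limma adjusted p = 0.00239). This call held in all 19 alternative settings. The summed signal of the ciliated list was in contrast lower with TGF-β1 (41250 to 45150) than in the controls (45200 to 48450). Among the other genes above background on all 6 arrays, Mcidas had 0.45, Tubb4b -0.19 and Rsph1 -0.27, and Dnah9, above background on 5 arrays, had 0.71. None of these passed.

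Scgb1a1 encodes the main secretoglobin of club cells. It gave log2 signals of 10.83, 10.18 and 7.77 in the controls and 7.00, 7.57 and 7.42 with TGF-β1. As for Ager, Hopx and Cav1, control replicate 3 was the lowest control by a wide margin, and the difference of -2.27 did not pass (limma adjusted p = 0.158). With single arrays left out it was -3.18 to -1.65 (limma adjusted p 0.0205 to 0.414), and it passed in 3 of 19 alternative settings. None of the 9 club cell genes passed, Scgb3a2 having 1.05, Bpifa1 0.14 and Hp -0.62, and the median of the list was -0.24. Scgb3a1, above background on 5 arrays, had -0.97. Bpifb1, above background on no control array and on all 3 TGF-β1 arrays, was at least 1.41-fold higher and did not pass (limma adjusted p = 0.143). The summed signal of the list was 244100 to 280000 in the controls and 216400 to 252300 with TGF-β1, which overlapped. The part of basal, ciliated and club cells in the marker values was not tested.

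Endothelial cells, which are rich in caveolin-1, were represented by 10 genes, of which 6 were not above background on any array, Cdh5, Tek, Tie1 and Cldn5 among them. The summed signal of the list was 754.6 to 842.8 in the controls and 830.4 to 1331 with TGF-β1, and none of the 4 tested genes passed. Egfl7 had 0.47, Pecam1 0.13 and Esam -0.19, and Vwf, above background on 3 arrays, had 0.19. Of 10 fibroblast genes, 6 were undetected and 4 tested. Col1a1 and Col1a2, the chains of type I collagen, were above background on the 3 TGF-β1 arrays and on no control array, and so could pass the filter only through the group where they were high. They were at least 2.16-fold and at least 2.38-fold higher with TGF-β1. Their limma adjusted p of 0.0131 and 0.0162 rest on control values below background, and exceeded the threshold without control replicate 1 (0.0589 and 0.0597), control replicate 2 (0.0627 and 0.0754) or TGF-β1 replicate 2 (0.0644 and 0.0727). With normexp background the fitted difference was 0.60 for Col1a1 and 0.43 for Col1a2, the latter no longer passing (0.0855). Dcn with 1.00 and Pdgfra with 0.21 did not pass. The summed signal of the fibroblast list was 542.1 to 620.0 in the controls and 670.7 to 2396 with TGF-β1. Of 10 leukocyte genes 5 were tested and none passed, with Cd68 at 0.90, Itgam at 0.43, Csf1r at 0.01, Cd3e at -0.24 and Marco, above background on 3 arrays, at -0.25, and Ptprc, the common leukocyte antigen, was undetected. Of 8 goblet cell genes 3 were tested and none passed, Fcgbp having 0.26, Spdef 0.12 and Agr2, above background on 4 arrays, -1.07. The genes above background on fewer than 6 arrays, other than the collagen genes, were added after their values were seen.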

How the data were processed

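Total RNA of 3 control and 3 TGF-β1 2D-MAO cultures was measured on single-colour Agilent mouse arrays. The deposited files hold, for each spot, the intensity on a linear scale after background subtraction by the authors with Agilent Feature Extraction 11.0.1.1, as given in the submitters' processing notes, without normalization between arrays. The authors' own comparisons were not used.

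Control and flagged spots were left out, log2 signals were normalized by quantiles as in the study's methods, and spots of a probe were averaged. Probes were named through RefSeq accessions (32991 of 56599 probes matched). A probe well above background on at least 3 of 6 arrays was kept, and the probe with the highest mean signal stood for a gene. Of 22910 genes, 14345 were tested with limma 3.58.1 in R 4.3.3, with Benjamini-Hochberg adjustment over all of them. No spot was saturated, 55.0% to 59.0% of probes per array were well above background, and the number of arrays limits the precision. The quantile step sets the brightest spots to common values, which narrows the spread of Sftpd and Aqp5. Undetected probes have only a bound, computed against the dimmest probe well above background on the same array (at least N-fold). Levels of different probes were not compared.

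The genes named are all 10 markers, the 2 highest and 2 lowest of each list among genes above background on all 6 arrays, and any that passed, unless marked as chosen later. The markers and the 14 further lists were chosen with earlier results of these data known. Alternatives were 75th percentile scaling, normexp background (offset 50), omission of the filter, detection required on all 6 arrays, mean of probes, each probe as a unit, the methods' t-test, trend and robust priors, array weights, replicate block, slide row and leaving out each array. The planned mean spot brightness is not in the files used here, so the median was used for normexp. The fit was tested on simulated data.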

Additional observations from a re-analysis of the deposited data

How the results depend on the processing

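No marker passed under any alternative except within slide row 1, where 2 did (Hopx and Cav1); leaving out each array gave 0 to 0. Of 114 marker values under alternatives, 105 kept their direction and side of the threshold. With 75th percentile scaling in place of quantiles, Sftpd was at -0.17, Aqp5 at -0.24 and Lamp3 at 0.02. Ager changed sign to -0.22 with 75th percentile scaling, -0.11 with the mean of probes, -0.14 with array weights, -0.18 within row 1, and -0.34, -0.08 and -0.01 without control replicate 3, TGF-β1 replicate 1 and TGF-β1 replicate 2, in a range of -0.34 to 0.34 over single arrays left out. The cause was not tested.

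The number of all genes called, 292, was 74 without a detection filter, 520 with each probe as a unit, 9 in the methods' t-test after Benjamini-Hochberg adjustment, 2451 in that test unadjusted, 507 with trend and robust priors, 4982 with array weights, 3846 within row 1, and 56 to 2202 when single arrays were left out, highest without TGF-β1 replicate 3. The deviations of same-numbered arrays correlated at -0.01, 0.33 and -0.05, and those of differently numbered arrays at -0.37 to 0.25. These values do not settle whether replicate numbers pair the arrays. With the replicate block, 103 genes and 0 markers were called. The SE was then 0.186 for Ager and 0.175 for Hopx, against 0.341 and 0.300 without the block.

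Other named genes near 0 changed sign. Aqp3 was 0.0015 with array weights, 0.0539 within row 1 and -0.18 to 0.11 with single arrays left out. Aqp7 was 0.15 with percentile scaling, 0.0111 with normexp, 0.14 with array weights, 0.19 within row 1 and -0.18 to 0.10 with single arrays left out. Csf1r was -0.13, -0.0098, -0.23 and -0.25 under those settings, -0.0308 with the mean of probes and -0.17 to 0.20 with single arrays left out. Itgam was -0.0644 with the mean of probes and Pacsin3 -0.0065 with percentile scaling. With single arrays left out, Fcgbp ranged from -0.0408 to 0.55 and Spdef from -0.12 to 0.27.

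With 3 arrays per group, the values remain compatible with any change within the intervals given. For the 4 undetected markers the signal over background allows no statement on a change.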
